A study of Mus musculus with 18 samples.

Results

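A set of 10 genes whose products make glycerol 3-phosphate and join it with fatty acids into triglyceride were followed in mouse brown adipocytes in which the lipase activator ABHD5 could be switched on. They were chosen by name from the steps of the pathway (*Pck1*, *Gyk*, *Gpd1*, *Gpam*, *Agpat2*, *Lpin1*, *Lpin2*, *Dgat1*, *Dgat2* and *Aqp7*), with earlier results of these data known. Each was among the 17672 genes counted. All 10 also passed the filter on low counts, which left 10178 genes tested, although *Pck1* had at most 4 counts in DMSO without Dox and *Lpin2* at most 22 in any library.

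Triglyceride is rebuilt in adipocytes while it is being broken down, so part of the fatty acid released by lipases returns to the lipid droplet. Its backbone, glycerol 3-phosphate, is made from pyruvate by glyceroneogenesis, in which the PEPCK encoded by *Pck1* is the committed enzyme and the dehydrogenase encoded by *Gpd1* reduces dihydroxyacetone phosphate, or from free glycerol by glycerol kinase (*Gyk*), and glycerol itself crosses the membrane through aquaporin 7 (*Aqp7*). Acylations by enzymes such as those of *Gpam* and *Agpat2*, removal of the phosphate by lipins (*Lpin1*, *Lpin2*) and a last acylation by *Dgat1* or *Dgat2* give triglyceride. Glycerol kinase is low in white fat and is known for its induction by cold and β-adrenergic agonists in brown fat.

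The cells were an immortalised mouse brown preadipocyte line differentiated in culture, not adipocytes taken from tissue. Every group carried a stable lentiviral shRNA against *Abhd5* together with a lentiviral, doxycycline (Dox)-inducible, mCherry-tagged ABHD5 that the shRNA cannot target, so that no group had unmanipulated ABHD5 and no group lacking the construct was analysed here. Cells without Dox, the knockdown state, received the vehicle DMSO, 10 nM isoproterenol (ISO, a β-adrenergic agonist) or 20 µM SR-3420 (a synthetic ABHD5 ligand that starts lipolysis without the receptor) for 3 h. Cells treated with 1 µg/ml Dox (for 24 to 48 h by the labels and 24 h by the study's account of this experiment) received the same 3 stimuli for 3 h. With 3 replicates in each of the 6 groups there were 18 libraries, which by the study's methods came from 3 independent experiments.

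The deposited values were counts per gene over a region whose length followed intron rather than exon length, so they were read as mainly unspliced RNA (below, a level is in CPM, counts per TMM-scaled library size). Totals per library were 689910 to 1956565 counts with a median of 1145729, and the median gene had 8 to 25 counts. The 10 most counted genes took 16.3% to 26.5% of the counts in 17 libraries and 35.6% in SR-3420 with Dox replicate 1, which therefore stood apart, and the calls that change without it are named. *Abhd5* rose from 52.6 ± 4.71 CPM to 574 ± 86.1 CPM with Dox in DMSO (SD, n = 3, adjusted p = 2.44e-14), but the labels do not say whether the construct carries introns. How its reads entered counts of mainly intron sequence was not tested, so the rise was not taken as a measure of mature ABHD5 transcript. In knockdown cells *Abhd5* was 2.84-fold higher in ISO than in DMSO (adjusted p = 3.34e-07), so that the fold with Dox was 11.0 in DMSO and 5.56 in ISO. Of 8 tested adipocyte markers, 7 had group means between 242 and 1781 CPM, while *Fabp4* ran from 19.4 CPM in DMSO without Dox to 169 CPM in SR-3420 with Dox, and the 7 macrophage markers summed to 9.76 to 22.1 CPM and the 5 endothelial markers to 6.80 to 25.8 CPM per library. Among the brown adipocyte markers, *Dio2* was at 0 counts in all 18 libraries, *Ucp1* had a mean of 0.297 CPM in DMSO without Dox and 241 CPM in ISO with Dox, and *Prdm16* was between 26.5 and 142 CPM. Preadipocyte or fibroblast markers summed to 510.2 to 1177 CPM per library, mainly from *Col1a1* and *Col3a1*, while *Dpp4*, *Pi16* and *Thy1* had at most 2 counts. In such bulk samples, fewer cells of a type and less RNA per cell cannot be told apart.

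The promoters of *Pck1*, *Gyk* and *Aqp7* are printed first, and the matches in the other members' windows follow. The elements searched were set because ISO is known to raise cAMP and fatty acids are known ligands of nuclear receptors. Whether they bear on the responses was not tested. Windows from 250 bases before to 50 after the start site were taken from RefSeq (table build GRCm38.p6). There 7 of the 10 members had one, and *Gpd1*, *Dgat1* and *Dgat2* had none. Each window was found once in mm9, whose coordinates are given. The letters searched on both strands were the full cAMP response element TGACGTCA, the short element TGACG, which reads CGTCA on the other strand, the nuclear receptor element AGGTCA, which reads TGACCT on the other strand, and the direct repeat 1 of the latter, a pair of them separated by a single base, with a full element counted also as holding the short one. Capitals mark matches.
Pck1, chr2:172978324-172978623, plus strand: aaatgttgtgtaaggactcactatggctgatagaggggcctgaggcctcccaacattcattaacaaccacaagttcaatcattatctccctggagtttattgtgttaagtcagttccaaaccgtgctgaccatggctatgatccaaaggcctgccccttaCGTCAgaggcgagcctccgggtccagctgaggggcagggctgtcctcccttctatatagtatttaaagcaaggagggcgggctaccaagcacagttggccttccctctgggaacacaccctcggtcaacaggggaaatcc
Gyk, chrX:83022109-83022408, minus strand: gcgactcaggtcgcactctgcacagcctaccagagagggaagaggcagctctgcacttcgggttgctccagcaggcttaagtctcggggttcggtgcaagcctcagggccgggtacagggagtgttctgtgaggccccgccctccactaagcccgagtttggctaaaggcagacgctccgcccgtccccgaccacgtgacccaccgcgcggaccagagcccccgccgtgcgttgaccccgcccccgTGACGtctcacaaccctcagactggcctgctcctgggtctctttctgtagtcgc
Aqp7, chr4:40995120-40995419, minus strand: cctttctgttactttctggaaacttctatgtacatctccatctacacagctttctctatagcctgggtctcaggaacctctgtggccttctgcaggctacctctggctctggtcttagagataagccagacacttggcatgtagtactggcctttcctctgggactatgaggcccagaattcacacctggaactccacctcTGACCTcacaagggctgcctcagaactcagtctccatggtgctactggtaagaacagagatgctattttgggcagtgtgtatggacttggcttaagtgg
The *Pck1* window held the short cAMP response element as CGTCA at bases -90 to -86 from the start site, and the *Gyk* window held it as TGACG at bases -4 to 1. In the *Aqp7* window, the nuclear receptor element stood as TGACCT at bases -49 to -44, and the short cAMP response element was not found. An overlapping *Aqp7* window, of a start site 174 bases away, held the same site and 1 more. Of the other 4 members with a window, the first *Lpin2* window (CGTCA at -12 to -8) and a second window of *Gpam* (CGTCA at -31 to -27 and -9 to -5) held the short element. *Lpin1* (-74 to -69) and that *Gpam* window (-196 to -191) held AGGTCA, and *Agpat2* held none. These windows are set by RefSeq start sites, and that of *Lpin1* lies 21196 bases and that of *Lpin2* 446 bases from the start of the gene counted. Of 32851 windows of the same length, 20.8% held the short cAMP response element, 16.3% the nuclear receptor element and 1.79% the full cAMP response element. The direct repeat 1 was in 0.04% of windows, 13 in number, and in none of the members' windows, nor was the full element. These matches describe letters only, and binding was not measured here.

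*Pck1* (NM_011044, mm9 chromosome 2, 172978574 to 172984754, plus strand) was nearly silent in vehicle and was the member with the highest fold in ISO with Dox. Its level in DMSO without Dox was 3.56, 4.08 and 3.04 CPM, resting on 3 to 4 counts a library, and in DMSO with Dox 10.1, 3.12 and 6.74 CPM. With ISO it was 37.8, 16.9 and 43.5 CPM without Dox and 345, 232 and 354 CPM with Dox. Every ISO library stood above every DMSO library, and the ISO libraries with Dox stood above all others. The fold was 9.23 (95% interval 4.33 to 19.7, adjusted p = 4.28e-05) without Dox and 40.7 (95% interval 25.6 to 64.6, adjusted p = 2.97e-13) with Dox. Without DMSO with Dox replicate 1, which had 21 counts against 3 and 6 in the other DMSO libraries with Dox, the log2 fold change with Dox was 5.96 in place of 5.35. SR-3420 gave 20.3, 6.97 and 4.71 CPM without Dox and 55.4, 62.6 and 37.9 CPM with Dox. The SR-3420 libraries with Dox overlapped the ISO libraries without Dox and lay above both DMSO groups. With Dox, SR-3420 raised *Pck1* by a log2 fold change of 2.78 (SE 0.39, adjusted p = 1.23e-05), or 3.39 without DMSO with Dox replicate 1. Without Dox the log2 fold change was 1.63 (95% interval 0.34 to 2.92) and did not pass (adjusted p = 0.371, 0.0184 with no filter on low counts and, without SR-3420 without Dox replicate 1, a log2 fold change of 0.75 with adjusted p = 0.885).

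*Gpd1* (NM_010271, chromosome 15, 99548024 to 99555438, plus strand), the other enzyme of glyceroneogenesis, had the opposite order, with higher levels in SR-3420 than in ISO. Its DMSO levels were 268, 393 and 317 CPM without Dox and 413, 399.7 and 381 CPM with Dox. In ISO they were 263, 251 and 319 CPM without Dox, which overlapped DMSO, and 539, 499 and 630.5 CPM with Dox. In SR-3420 they were 619, 572 and 654 CPM without Dox and 1464, 1151 and 1184 CPM with Dox. Thus with Dox the 3 groups did not overlap, DMSO lying lowest and SR-3420 highest. SR-3420 raised *Gpd1* by a log2 fold change of 0.92 (SE 0.15, adjusted p = 0.000759) without Dox and 1.67 (SE 0.15, adjusted p = 9.92e-09) with Dox. ISO raised it with Dox by 0.48 (SE 0.15, adjusted p = 0.0140), a call lost on library totals alone (0.34) and without ISO with Dox replicate 3 (0.40), and not without Dox (-0.22, 95% interval -0.54 to 0.10, adjusted p = 0.305). The processed transcript Gm16537 overlaps *Gpd1* on the other strand over 6882 bases, and as counting was not stated to use strand, reads of both cannot be told apart.

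*Gyk* (NM_008194, chromosome X, 82947276 to 83022158, minus strand) responded to ISO in both states. Its DMSO levels were 77.4, 58.5 and 65.9 CPM without Dox and 78.5, 45.8 and 47.2 CPM with Dox. ISO gave 643, 460.0 and 622 CPM without Dox and 1079, 562 and 927 CPM with Dox. The ISO groups with and without Dox overlapped each other and lay above all other libraries. ISO raised *Gyk* 8.45-fold (95% interval 5.98 to 11.9, adjusted p = 1.04e-10) without Dox and 14.3-fold (95% interval 10.1 to 20.1, adjusted p = 6.33e-13) with Dox. In SR-3420 the levels were 125, 90.0 and 83.2 CPM without Dox and 113, 58.7 and 93.9 CPM with Dox. The log2 fold changes against DMSO were 0.55 (SE 0.25, adjusted p = 0.518) and 0.57 (SE 0.26, adjusted p = 0.178), and neither passed, but with the replicate number as a block both did (0.59, adjusted p = 0.0273, and 0.60, adjusted p = 0.00750). *Gyk* is overlapped on the other strand by a pseudogene and a processed transcript over 6003 bases in all.

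*Aqp7* (NM_007473, chromosome 4, 40980107 to 40995169, minus strand) fell with ISO in knockdown cells. Its levels without Dox were 127, 93.9 and 137 CPM in DMSO and 59.4, 56.5 and 81.1 CPM in ISO, with no overlap. With Dox they were 161, 128 and 167 CPM in DMSO and 223, 157 and 242 CPM in ISO, which overlapped. The log2 fold change with ISO was -0.86 (SE 0.20, adjusted p = 0.00151) without Dox and 0.43 (SE 0.17, adjusted p = 0.0496) with Dox. The rise with Dox lay at the threshold and was lost in 9 of 13 alternatives, with an adjusted p of up to 0.234. SR-3420 gave 215, 186 and 229 CPM without Dox and 331, 278 and 386 CPM with Dox, in both cases above every DMSO and ISO library of the same state. These were log2 fold changes against DMSO of 0.80 (SE 0.17, adjusted p = 0.0204) and 1.12 (SE 0.17, adjusted p = 3.15e-05). The call without Dox was lost on library totals alone (adjusted p = 0.0935) and without replicate 1 or 2 of DMSO or replicate 1 or 3 of SR-3420 (adjusted p of 0.0887 to 0.133). Over all 13 alternatives the log2 fold change of that contrast ran from 0.67 to 0.90.

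**Figure D1:**
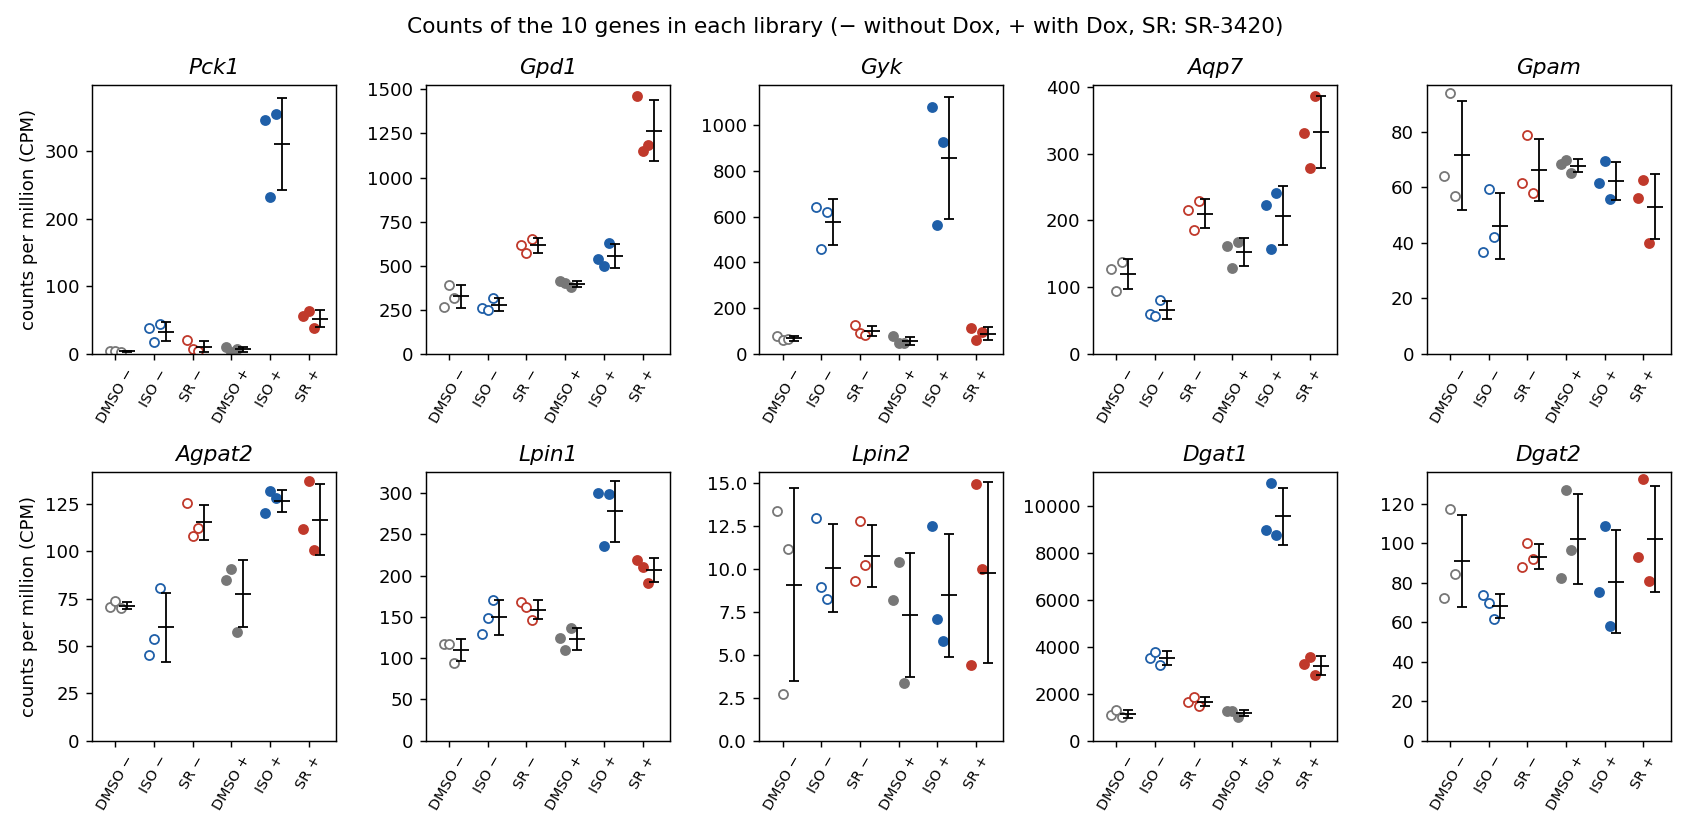
Level of each of the 10 genes in each of the 18 libraries. The vertical axes give CPM from 0 with a scale of their own for each gene, the circles are libraries (open without Dox, filled with Dox), and the bars beside them are the mean ± SD of 3 libraries. *Pck1*, *Gyk*, *Lpin1* and *Dgat1* were highest in ISO with Dox, whereas *Gpd1* and *Aqp7* were highest in SR-3420 with Dox.

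The first acylation enzyme and the second behaved differently from each other. *Gpam* (NM_008149, chromosome 19, 55144224 to 55173937, minus strand), a mitochondrial glycerol 3-phosphate acyltransferase, was between 36.7 and 93.9 CPM in all libraries. It was 64.1, 93.9 and 56.8 CPM in DMSO and 36.7, 59.5 and 42.0 CPM in ISO without Dox, which overlapped. Its log2 fold change there was -0.61 (SE 0.21, adjusted p = 0.0288), but the call was lost without DMSO without Dox replicate 2 (-0.39, adjusted p = 0.194), without ISO without Dox replicate 1 (-0.48) or 3 (-0.53), and with DESeq2 (adjusted p = 0.0508). In the other 3 stimulations the log2 fold change of *Gpam* lay between -0.36 and -0.08 and did not pass.

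*Agpat2* (NM_026212, chromosome 2, 26448577 to 26459937, minus strand), which acylates lysophosphatidate and whose loss in people causes lipodystrophy, was 70.3, 73.5 and 70.0 CPM in DMSO and 45.4, 53.5 and 80.3 CPM in ISO without Dox. With Dox it was 84.7, 90.6 and 57.3 CPM in DMSO, 120.1, 132 and 128 CPM in ISO and 112, 137 and 101 CPM in SR-3420. Both stimulated groups with Dox thus lay above their DMSO libraries and overlapped each other. The log2 fold change with Dox was 0.69 (SE 0.17, adjusted p = 0.00256) for ISO and 0.57 (SE 0.17, adjusted p = 0.0330) for SR-3420. The SR-3420 call was lost on library totals alone (0.39) and without DMSO with Dox replicate 1 (0.65) or 3 (0.41), or SR-3420 with Dox replicate 1 (0.60) or 2 (0.44). Without Dox, SR-3420 gave 125, 108 and 112 CPM, which lay above DMSO without overlap. Its log2 fold change of 0.70 (SE 0.18) missed the threshold (adjusted p = 0.0554) and passed with the replicate block (0.69, adjusted p = 0.00653). *Agpat2* lies wholly within the span of Gm20532 on the other strand.

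Of the lipins, *Lpin1* (NM_172950, chromosome 12, 16542475 to 16596576, minus strand) rose in 3 of the 4 stimulations. Its DMSO levels were 117, 117 and 94.4 CPM without Dox and 125, 109 and 136 CPM with Dox. ISO gave 129, 149 and 170.4 CPM without Dox and 300.1, 236 and 298 CPM with Dox. SR-3420 gave 168, 162 and 146 CPM without Dox and 219, 209.8 and 191 CPM with Dox. With Dox the 3 groups were apart, DMSO being lowest and ISO highest. The log2 fold change was 1.17 (SE 0.14, adjusted p = 1.62e-07) for ISO with Dox and 0.74 (SE 0.14, adjusted p = 0.000607) for SR-3420 with Dox. It was 0.45 (SE 0.15, adjusted p = 0.0231) for ISO without Dox, which was lost on library totals alone (0.28) and without replicate 3 of DMSO (0.35) or of ISO (0.35). For SR-3420 without Dox, a log2 fold change of 0.54 (SE 0.15) did not pass (adjusted p = 0.0905) but did with the replicate block (0.54, adjusted p = 0.0104). *Lpin2* (NM_022882, chromosome 17, 71533318 to 71599158, plus strand) had 2 to 22 counts a library, and none of its contrasts passed. Its 95% interval for ISO with Dox ran from -0.79 to 1.13 on the log2 scale, so that changes of up to about that size were not detectable at this depth. *Lpin2* also lies within a long non-coding RNA annotated on the same strand.

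At the last step the 2 acyltransferases, which are unrelated in sequence, diverged. *Dgat1* (NM_010046, chromosome 15, 76332445 to 76342248, minus strand) was 1081, 1321 and 1017 CPM in DMSO without Dox and 1253, 1249 and 1018 CPM in DMSO with Dox. ISO gave 3527, 3786 and 3216 CPM without Dox and 8980.5, 10952 and 8734 CPM with Dox. SR-3420 gave 1629, 1875 and 1484 CPM without Dox and 3261, 3544 and 2781 CPM with Dox. The levels in ISO with Dox stood above all others, and those in SR-3420 with Dox overlapped ISO without Dox. ISO raised *Dgat1* 3.08-fold (95% interval 2.35 to 4.05, adjusted p = 2.42e-07) without Dox and 8.14-fold (95% interval 6.11 to 10.8, adjusted p = 1.83e-12) with Dox. SR-3420 raised it 2.72-fold with Dox (95% interval 2.08 to 3.57, adjusted p = 4.84e-06). The 1.46-fold difference for SR-3420 without Dox (95% interval 1.12 to 1.91) did not pass (adjusted p = 0.283), but did with the replicate block (log2 0.55, adjusted p = 0.0333). The counted region of *Dgat1* was 7897 bases, 1014 more than its annotated introns, so exon reads may be among its counts.

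*Dgat2* (NM_026384, chromosome 7, 106302173 to 106331223, minus strand) lay between 57.8 and 132 CPM in every library and passed in none of the 10 contrasts. With the replicate block it passed for ISO without Dox (-0.40, adjusted p = 0.0480), where the lowest correlation of same-numbered pairs was 0.0793. It was 72.1, 117 and 84.2 CPM in DMSO and 73.5, 69.4 and 61.6 CPM in ISO without Dox, and 82.3, 127 and 96.6 CPM in DMSO and 75.03, 109 and 57.8 CPM in ISO with Dox. The groups overlapped in both states. Its log2 fold change for ISO was -0.40 (95% interval -0.85 to 0.05) without Dox and -0.30 (95% interval -0.72 to 0.12) with Dox. For SR-3420 it was 0.06 (95% interval -0.36 to 0.48) without Dox and 0.02 (95% interval -0.39 to 0.44) with Dox, values whose sign changed with the library left out.

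Counted over the 10 genes, ISO without Dox gave 4 higher and 2 lower, where 14.5% of all tested genes were higher and 13.5% lower. The median log2 fold change of the members was -0.10, beside -0.01 for all tested genes. With Dox, ISO gave 7 higher and none lower, beside 16.4% of all tested genes higher, and the median was 0.58 beside -0.02. SR-3420 without Dox gave 2 higher, *Gpd1* and *Aqp7*, beside 0.698% of all tested genes, with medians of 0.55 and -0.0034. As the replicate numbers paired those libraries, a replicate block was fitted too and gave 6 members higher (*Gpd1*, *Aqp7*, *Agpat2*, *Lpin1*, *Gyk* and *Dgat1*) beside 1.94% of all genes. SR-3420 with Dox gave 6 higher beside 6.53% of all tested genes, with medians of 0.66 and -0.01, and 7 with the replicate block, *Gyk* being added, beside 9.83%. Without SR-3420 with Dox replicate 1 the count was 5, as *Agpat2* (0.60) dropped out. The ISO and SR-3420 comparisons of one state share their DMSO libraries.

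**Figure D2:**
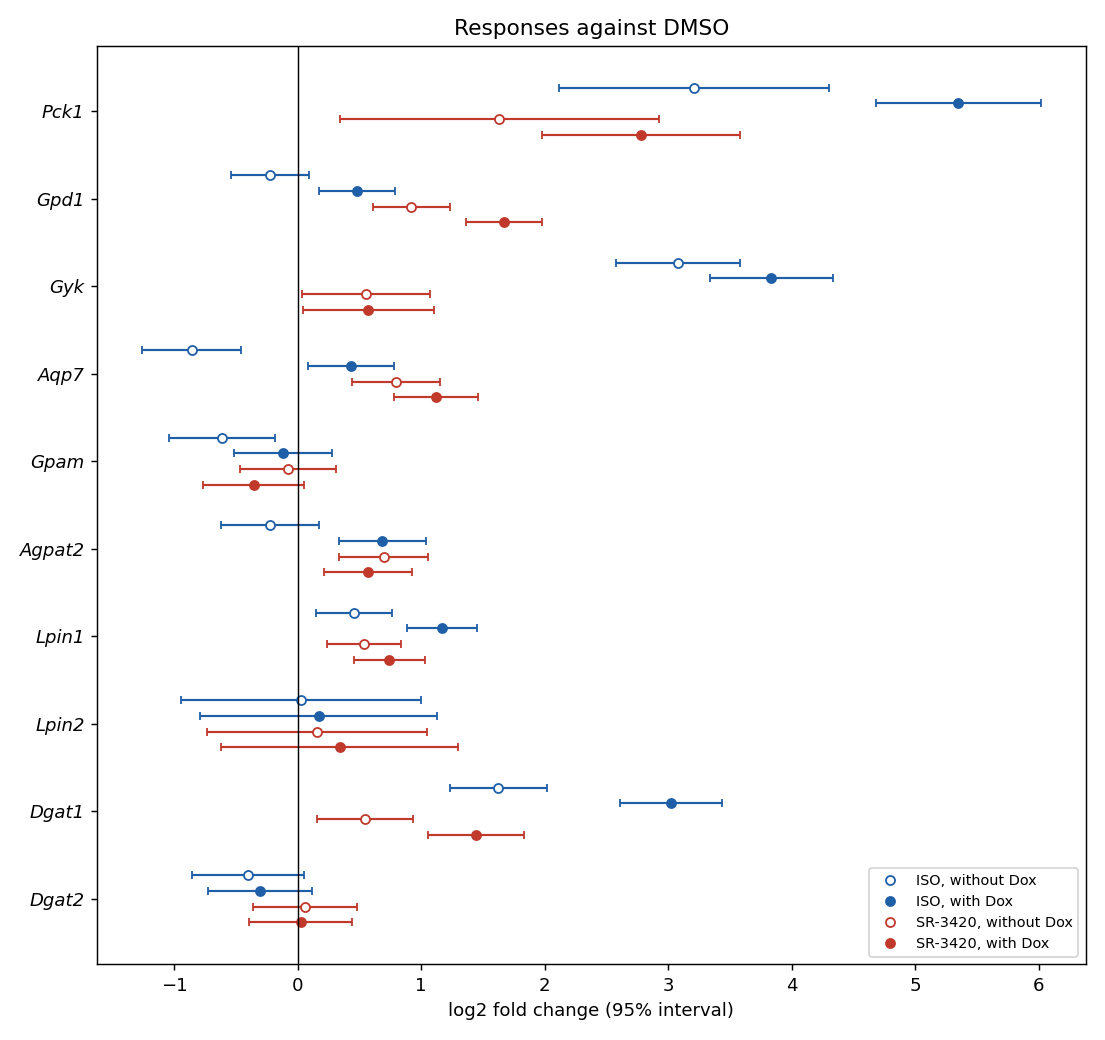
Log2 fold change against DMSO of each gene for ISO (blue) and SR-3420 (red), without Dox (open circles) and with Dox (filled circles). Horizontal bars are 95% intervals of the fit and the vertical line marks no change. The interval of *Aqp7* lay below 0 for ISO without Dox and above 0 for the other 3 stimulations, and those of *Dgat2* and *Lpin2* included 0 throughout.

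ISO and SR-3420 were compared with each other directly in cells with Dox, where no control is shared. *Gyk* was 9.59-fold higher (95% interval 6.87 to 13.4, adjusted p = 2.17e-11), *Pck1* 5.94-fold (95% interval 4.18 to 8.43, adjusted p = 6.71e-09) and *Dgat1* 2.99-fold (95% interval 2.28 to 3.92, adjusted p = 4.72e-07) in ISO. *Lpin1* was higher by a log2 fold change of 0.43 (SE 0.14, adjusted p = 0.0246), a call lost without ISO with Dox replicate 1 (0.37) or 3 (0.39), without SR-3420 with Dox replicate 3 (0.37) and in a fit of these 2 groups alone (0.42). In the other direction, *Gpd1* had a log2 difference of -1.19 (SE 0.15, adjusted p = 7.98e-07) and *Aqp7* of -0.69 (SE 0.16, adjusted p = 0.00321), both lower in ISO. Thus 4 of the 10 were higher in ISO and 2 lower, where 10.4% and 9.43% of all tested genes were. *Agpat2* showed a difference of 0.12 with a 95% interval from -0.22 to 0.46, which does not show that the stimuli act alike on it.

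Libraries with and without Dox were compared under each stimulus. Dox and the ABHD5 it induces cannot be told apart here, as no Dox-treated cells lacking the construct were analysed. In DMSO none of the 10 passed with edgeR, none had an unadjusted p under 0.05 and none passed with DESeq2 or the replicate block, beside 1.18% of all tested genes in either direction. The widest of these, *Pck1*, had a fold of 2.10 with a 95% interval from 0.778 to 5.68, and its log2 fold change of 1.07 became 0.46 without DMSO with Dox replicate 1. In ISO, 6 were higher with Dox, beside 7.92% of all tested genes: *Pck1* by a log2 fold change of 3.21 (SE 0.26, adjusted p = 6.61e-10), *Aqp7* by 1.63 (SE 0.19), *Dgat1* by 1.44 (SE 0.19), *Agpat2* by 1.05 (SE 0.18), *Gpd1* by 1.00 (SE 0.15) and *Lpin1* by 0.89 (SE 0.14). The replicate block, whose numbers paired these libraries, added *Gyk* (0.54, adjusted p = 0.000180, against 0.57 and 0.0627 without it), where 10.9% of all tested genes were higher. In SR-3420, 4 were higher with Dox, beside 7.26% of all tested genes. These were *Pck1* (2.22, SE 0.35, and 3.09 without SR-3420 without Dox replicate 1), *Gpd1* (1.04, SE 0.15), *Dgat1* (0.94, SE 0.19) and *Aqp7* (0.66, SE 0.16, adjusted p = 0.00646), the last of which was lost on library totals alone (0.45) and without SR-3420 with Dox replicate 3 (0.54). The same 4 passed without SR-3420 with Dox replicate 1.

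Other genes moved with Dox as well, beside 1.18% of all tested genes in either direction in DMSO and 7.92% and 7.26% higher in ISO and SR-3420. Of 9 tested interferon-stimulated genes, 8 rose with Dox in DMSO (median log2 fold change 4.02), and 9 of 9 in ISO (4.15) and in SR-3420 (4.10). The summed level of the list, with 2 genes that were not tested, was 138 to 367 CPM in libraries without Dox and 744 to 1876 CPM in those with Dox. Of the 8 tested adipocyte markers, 1 rose with Dox in DMSO (median 0.19), 6 in ISO (0.86) and 4 in SR-3420 (0.42), and their summed level ran from 3334 to 5143 CPM without Dox and from 3996 to 7067 CPM with Dox. Of 6 tested brown adipocyte markers, 3 rose with Dox in ISO and 2 in SR-3420. None of the 5 tested preadipocyte markers passed in these 3 comparisons. The part of either change in the members' values was not tested.

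Whether the response differed with Dox was tested as the response with Dox minus the response without. For ISO, *Dgat1* had a difference of 1.40 on the log2 scale (SE 0.27, adjusted p = 0.00322) and *Aqp7* of 1.29 (SE 0.26, adjusted p = 0.00508). These 2 of the 10 members compare with 1.61% of all tested genes. At an unadjusted p under 0.05 there were 7 members, and DESeq2 called 5. The replicate block called 6 with *Agpat2*, *Lpin1*, *Gpd1* and *Gyk* added, although some same-numbered pairs here correlated under 0.1. Of all genes with a p, 14.1%, 3.83% and 5.90% met these criteria, in that order and in either direction. *Dgat1* was raised by ISO in both states and more with Dox, while the log2 fold change of *Aqp7* was below 0 without Dox and above 0 with Dox. Differences that did not pass were 2.14 for *Pck1* (95% interval 0.32 to 3.96, adjusted p = 0.240, and 2.75 without DMSO with Dox replicate 1), 0.91 for *Agpat2* (adjusted p = 0.0583), 0.72 for *Lpin1* (adjusted p = 0.0598), 0.76 for *Gyk* (adjusted p = 0.292) and 0.70 for *Gpd1* (adjusted p = 0.0824). The wide interval of *Pck1* goes with its 3 to 4 counts in DMSO without Dox. The members' median difference was 0.74, beside -0.01 for all tested genes.

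For SR-3420, none of the 10 members passed with edgeR (0.757% of all tested genes in either direction). At an unadjusted p under 0.05 there were 2, *Gpd1* with a difference of 0.75 (95% interval 0.32 to 1.18, adjusted p = 0.0855) and *Dgat1* with 0.90 (95% interval 0.35 to 1.44, adjusted p = 0.113), and DESeq2 called both (0.76, adjusted p = 0.0166, and 0.91, adjusted p = 0.000570). Of all genes with a p, 12.1% had an unadjusted p under 0.05, and DESeq2 called 80 of 7302, in either direction. The difference of *Pck1* was 1.14 (95% interval -0.65 to 2.94, adjusted p = 0.641), and 2.02 without SR-3420 without Dox replicate 1 or 1.76 without DMSO with Dox replicate 1. For *Gyk*, *Dgat2* and *Agpat2* the differences were 0.02, -0.03 and -0.13, and the first and second of these changed sign without SR-3420 with Dox replicate 1. The median was 0.20 beside -0.01 for all tested genes.

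**Figure D3:**
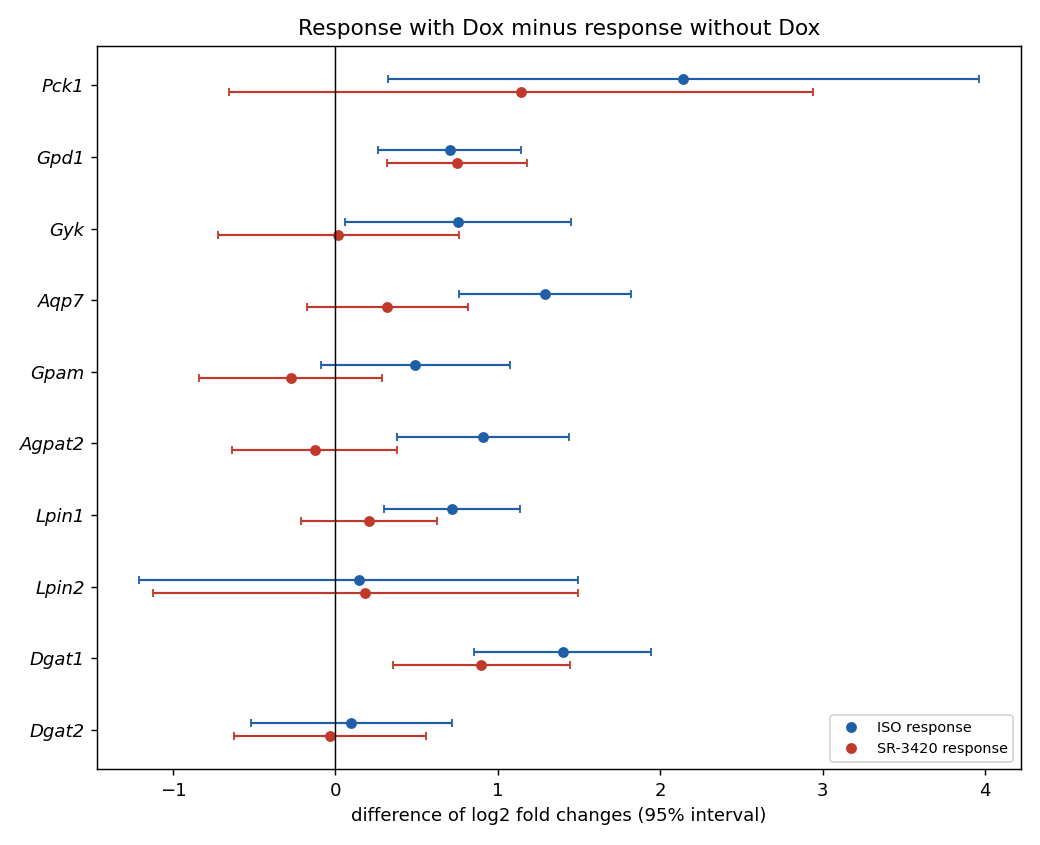
Difference between the response with Dox and the response without Dox on the log2 scale, for ISO (blue) and SR-3420 (red), with 95% intervals. The intervals for ISO lay above 0 for *Pck1*, *Gpd1*, *Gyk*, *Aqp7*, *Agpat2*, *Lpin1* and *Dgat1*, of which *Dgat1* and *Aqp7* passed after adjustment over all tested genes.

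Per length of the counted region, which was mainly intron, the members covered a wide range. These values are not levels of mature transcript, and those of *Dgat1*, counted over 1014 bases more than its annotated introns, may hold exon reads. On the scale of CPM per kb of counted length, *Dgat1* was the highest in every group, from 144 ± 20.3 in DMSO without Dox to 1210 ± 154 in ISO with Dox, followed by *Gpd1*, from 60.2 ± 7.91 in ISO without Dox to 275 ± 37.3 in SR-3420 with Dox (SD, n = 3). *Pck1* ran from 1.27 ± 0.185 in DMSO without Dox to 111 ± 24.4 CPM per kb in ISO with Dox, a level close to that of *Gpd1* in the same cells (121 ± 14.6). The level of *Gyk* per kb went from 0.968 ± 0.313 in DMSO with Dox to 14.5 ± 4.50 in ISO with Dox. *Dgat2* stayed between 2.82 ± 0.251 and 4.23 ± 1.11 CPM per kb, and *Lpin2* between 0.192 ± 0.0946 and 0.283 ± 0.0476. In DMSO with Dox the order from the highest was *Dgat1*, *Gpd1*, *Aqp7*, *Agpat2*, *Dgat2*, *Lpin1*, *Gpam*, *Pck1*, *Gyk* and *Lpin2*. Of these neighbours, *Lpin1* (2.87 ± 0.312), *Gpam* (2.82 ± 0.0978) and *Pck1* (2.38 ± 1.25) did not differ beyond their spread. The libraries of *Aqp7* and *Agpat2* also overlapped, as did those of *Pck1* and *Gyk*.

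**Figure D4:**
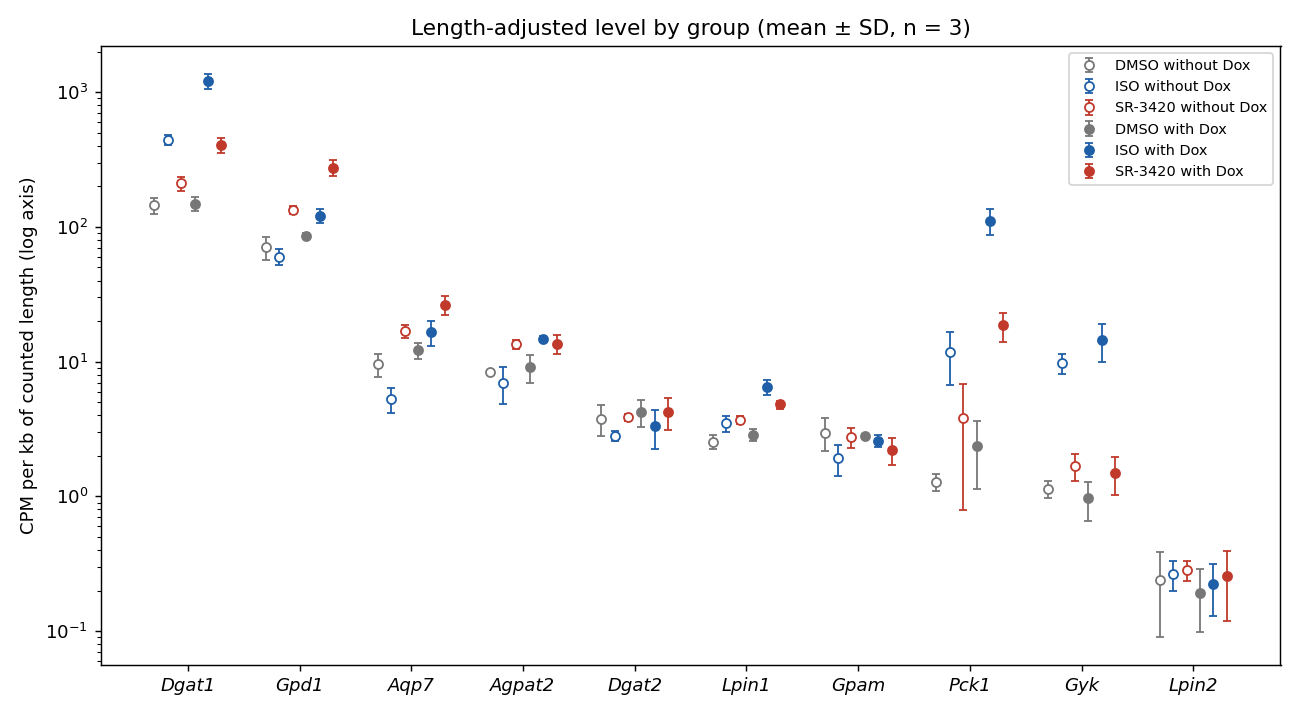
Level of each gene in each group as CPM per kb of counted length on a log axis, with genes ordered by their level in DMSO with Dox. Circles are means and bars SD of 3 libraries. *Pck1* spans the widest range, from 1.27 to 111 CPM per kb.

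As a description over the 18 libraries, which share stimulus, Dox state and replicate number, the log2 CPM of *Pck1* correlated with *Dgat1* at a Pearson r of 0.95, with *Lpin1* at 0.92 and with *Gyk* at 0.78. *Gpd1* correlated with *Aqp7* at 0.89 and *Aqp7* with *Agpat2* at 0.77. *Gyk* and *Gpd1* had an r of -0.18. The 5 tested genes whose pattern was most like that of *Pck1* were *Sik2* (r = 0.97), *Atg101* (0.96), *Sh2b2* (0.96), *Ltbp2* (0.96) and *Oxsr1* (0.95).

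Other genes of the pathway were read from lists chosen by name, also with earlier results of these data known. Of 8 tested genes that make or use glycerol 3-phosphate or its precursors, ISO raised 3 and lowered 2 without Dox. ISO raised 5 and lowered 1 with Dox, while SR-3420 raised none without Dox and 1 (*Pcx*) with Dox. For this and the next lists, the shares of all tested genes were 14.5% higher and 13.5% lower for ISO without Dox, 16.4% and 16.1% for ISO with Dox, 0.698% higher for SR-3420 without Dox, and 6.53% and 3.37% for SR-3420 with Dox. *Got1*, an aspartate aminotransferase that serves the export of oxaloacetate, rose with ISO from 13.8 ± 3.498 to 57.5 ± 11.3 CPM without Dox and from 15.2 ± 4.84 to 56.2 ± 21.9 CPM with Dox (SD, n = 3). *Pck2*, the mitochondrial PEPCK, moved the other way from *Pck1*, with log2 fold changes for ISO of -0.83 (SE 0.22, adjusted p = 0.00600) without Dox and -0.75 (SE 0.20, adjusted p = 0.00567) with Dox. Pyruvate carboxylase (*Pcx*) rose by 0.54 (SE 0.14) with ISO and by 0.53 (SE 0.14) with SR-3420 in cells with Dox.

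Among 8 other tested acyltransferases, ISO raised 1 without Dox and 3 with Dox, SR-3420 raised 1 without Dox and 3 with Dox, and none fell. *Agpat9*, which encodes the endoplasmic reticulum glycerol 3-phosphate acyltransferase GPAT3, rose in 3 of the 4 stimulations. Its level was 27.9 ± 4.66, 50.6 ± 12.6 and 49.5 ± 14.5 CPM in DMSO, ISO and SR-3420 without Dox and 35.9 ± 10.4, 208 ± 26.3 and 122 ± 20.8 CPM with Dox (SD, n = 3). Its ISO response differed between states by 1.73 (SE 0.34, adjusted p = 0.00456), and that of *Gpam*, which serves the same reaction, differed by 0.49 (95% interval -0.09 to 1.07, adjusted p = 0.450). *Agpat6* (GPAT4) and *Agpat3* rose with both stimuli in cells with Dox, by 0.72 and 0.50 with ISO and by 0.56 and 0.69 with SR-3420.

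The next list held other phosphatidate phosphatases and the lipin regulators *Ctdnep1* and *Cnep1r1*. Of its 6 genes, all tested, ISO raised 1 and lowered 1 without Dox and raised 1 and lowered 2 with Dox. SR-3420 raised none of them without Dox and 1 with Dox. *Ppap2b*, a membrane lipid phosphate phosphatase, rose by 1.0997 (SE 0.18, adjusted p = 1.67e-05) with ISO and 0.98 (SE 0.18, adjusted p = 0.000356) with SR-3420 in cells with Dox, and by 0.86 (SE 0.19, adjusted p = 0.00105) with ISO without Dox. *Lpin3*, the third lipin, fell by 2.18 with ISO in cells with Dox (SE 0.46, adjusted p = 0.000499) on 3 to 34 counts a library in those groups, and its log2 fold change without Dox was -1.01 (SE 0.50, adjusted p = 0.133). Of 10 tested genes in the phospholipid branch, ISO raised 3 in either state, and SR-3420 with Dox raised 2 and lowered 1, with the ISO calls including the ethanolamine kinase *Etnk1* (1.42, SE 0.14, without Dox and 1.03, SE 0.13, with Dox). *Crls1*, the cardiolipin synthase, passed in cells with Dox, by 1.27 (SE 0.19) with ISO and 1.22 (SE 0.19) with SR-3420, and its ISO response differed between states by 1.51 (SE 0.27, adjusted p = 0.00175). Of 3 tested droplet assembly genes, *Fitm2* was higher in ISO than in DMSO, by 1.46 (SE 0.38) in knockdown cells and 1.70 (SE 0.32) after Dox, and with SR-3420 by 1.41 (SE 0.33) with Dox, and *Bscl2*, which encodes seipin, rose with ISO and Dox by 0.77 (SE 0.17). The median log2 fold changes for ISO with Dox were 0.41, 0.28, -0.25, 0.22 and 0.77 for the lists in the order above, beside -0.02 for all tested genes.

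**Figure D5:**
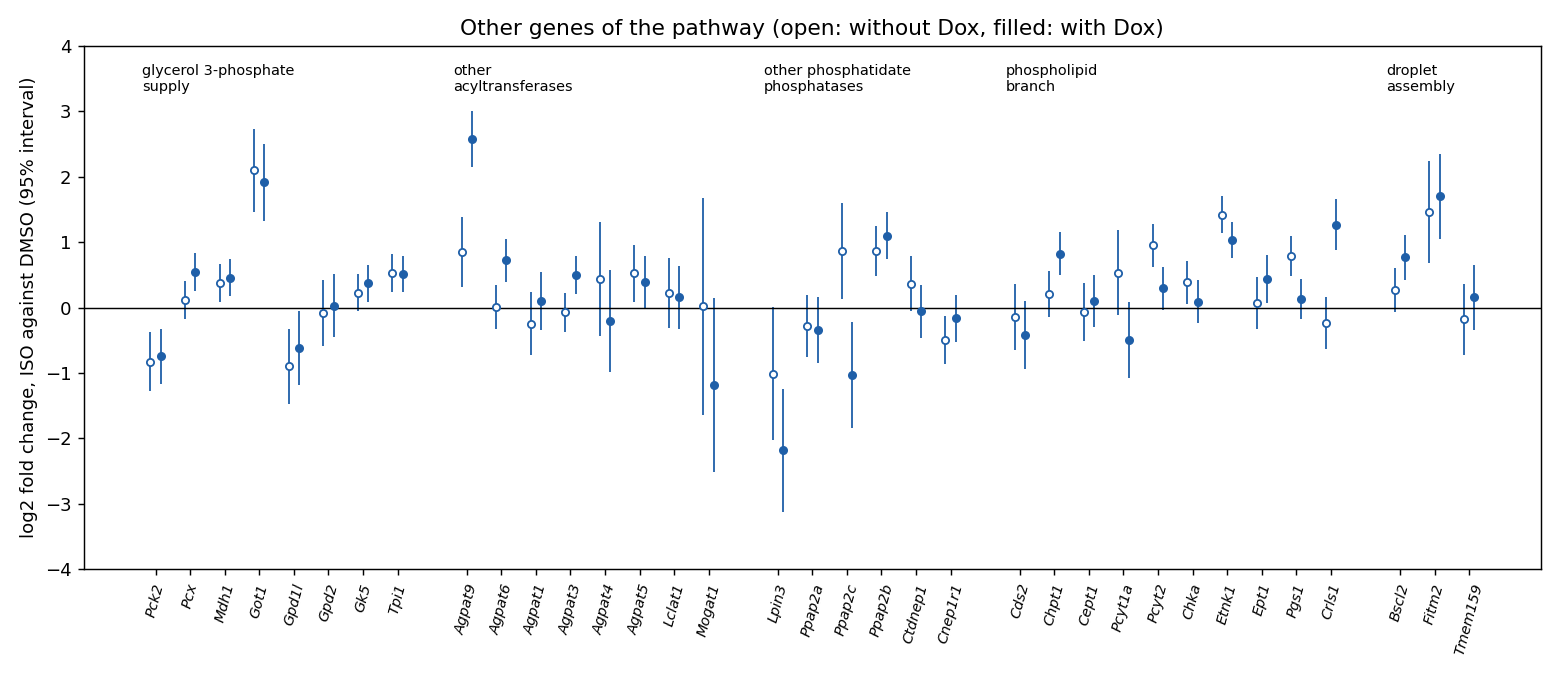
Log2 fold change of ISO against DMSO for the other pathway genes that were tested, without Dox (open) and with Dox (filled), with 95% intervals, grouped by list. *Got1* stands near 2 in both states, and *Agpat9* has a value of 0.85 without Dox and 2.58 with Dox.

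The marker counts stand beside the same shares of all tested genes, 14.5% and 16.4% higher for ISO and 0.698% and 6.53% higher for SR-3420, without and with Dox. In cells with Dox, all 8 tested adipocyte markers also rose with ISO (median 0.74) and 5 rose with SR-3420 (0.70), and without Dox ISO raised 2 and lowered 1 (0.02) and SR-3420 raised 3 (0.43). Of the 6 tested brown adipocyte markers, ISO raised 3 without Dox and 4 with Dox, and SR-3420 none without Dox and 3 with Dox. Preadipocyte markers gave 1 higher and 1 lower of 5 tested for ISO without Dox, 2 lower for ISO with Dox and none for SR-3420. The single endothelial marker tested, *Tek*, had log2 fold changes for ISO of 1.25 (knockdown) and 1.13 (Dox), both passing, at group means of 7.33 to 20.2 CPM, and the single macrophage marker tested, *Cd68*, passed in no comparison. The part of these changes in the members' values was not tested.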

How the data were processed

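RNA was sequenced from 18 libraries in 6 groups of 3. The deposited values are counts per gene, which the authors made by aligning reads to mm9 with STAR 2.4.2a, keeping 1 read per position and length with HOMER, and counting per gene with iRNA-seq. The option named in the methods is for whole genes, but the counted length was within 10% of intron length for 72.6% of 16536 matched genes and of exon length for 2.27%, so the values were read as mainly intron counts. Strand use in counting is not given in the sources used here.

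The members and gene lists were chosen with earlier results of these data known. Named genes were all members, *Abhd5*, the passing genes with the 3 smallest p of each pathway list in the stimulation contrasts and response differences, and the 5 genes most correlated with *Pck1*. Marker genes were named after their values were seen. Counts were fitted with edgeR 4.0.16 (R 4.3.3) quasi-likelihood over all 18 libraries with 6 group means, filterByExpr and TMM factors, and p was adjusted by Benjamini-Hochberg over 10178 genes (threshold 0.05). Standard errors and 95% intervals came from the same fit. The fit was tested on simulated data. Groups followed the labels. Replicate numbers were taken to pair libraries where the deviations of all same-numbered pairs correlated above 0.1, which held in 4 of the 10 comparisons (ISO with Dox, SR-3420 with and without Dox, and Dox in ISO). Alternatives were RLE factors, library totals only, other filters, DESeq2 1.42.0, a replicate block, only the groups compared, a log2 fold limit of 1, and leaving out each library. Figures were drawn with matplotlib 3.10.9. Values cover counting and replicate error at 689910 to 1956565 counts a library.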

Additional observations from a re-analysis of the deposited data

Results flagged for a closer look

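The response of *Dgat1* to ISO differed between cells with and without Dox by 1.40 on the log2 scale (adjusted p = 0.00322 with edgeR, higher in all 3 ISO libraries with Dox than in all 3 without). The response of *Aqp7* differed by 1.29 (adjusted p = 0.00508 with edgeR), its log2 fold change being -0.86 without Dox and 0.43 with Dox.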

How the results depend on the processing

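Of 100 values (10 members in 10 comparisons), 39 passed, of which 31 passed in every alternative that gave a value, the log2 fold limit left aside, and 8 were lost in at least 1. Of the 39, 23 had an absolute log2 fold change of at least 1. Of the 61 that did not pass, 16 passed in at least 1 alternative and 21 had the other sign in at least 1. No value that passed changed sign in these. *Pck1* and *Lpin2* had no value with a minimum of 10 counts in every library. Asking for a log2 fold change of at least 1 left 3 of 6 members for ISO without Dox, 4 of 7 for ISO with Dox, 0 of 2 for SR-3420 without Dox and 2 of 4 for Dox in SR-3420, by the construction of that limit. The share of all tested genes past that limit was not counted. For SR-3420 without Dox, the count of 2 became 1 on library totals, 5 with no filter, 5 with DESeq2, 6 with the replicate block (0.354%, 0.983%, 2.35% and 2.34% of all genes with an adjusted p, in either direction) and 1 to 2 when 1 library was left out. For the difference of the ISO response, the count of 2 became 4 with no filter, 5 with DESeq2, 6 with the replicate block (2.24%, 3.83% and 5.90% of all genes) and 2 to 4 when 1 library was left out, with 4 without ISO without Dox replicate 3 or ISO with Dox replicate 2. For the difference of the SR-3420 response, DESeq2 and the replicate block each gave 2 in place of 0 (80 of 7302 genes with an adjusted p and 3.33% of all genes). The cause was not tested.

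Over 45 same-numbered pairs the correlation of deviations ran from 0.0386 to 0.277 (median 0.149), and in 43 pairs the correlation was higher than with any other number. Over all tested genes the replicate block moved the calls from 78 to 238 for SR-3420 without Dox, from 222 to 600 for the difference of the ISO response, from 77 to 339 for that of the SR-3420 response, from 120 to 271 for Dox in DMSO, from 1008 to 1568 for SR-3420 with Dox and from 1175 to 1834 for Dox in SR-3420. Where some same-numbered pairs correlated under 0.1, the block added *Dgat2* (-0.40, adjusted p = 0.0480) for ISO without Dox. It also added *Lpin1* (0.38, adjusted p = 0.0189) for Dox in SR-3420. For the difference of the ISO response it added *Agpat2*, *Gpd1*, *Gyk* and *Lpin1*, and for that of the SR-3420 response *Gpd1* and *Dgat1*. Library totals moved the median of all genes to -0.19 for ISO without Dox, -0.16 for ISO with Dox, -0.21 for SR-3420 with Dox, -0.22 for Dox in SR-3420 and -0.14 for the difference of the SR-3420 response. Counts were low for *Lpin2* in every group and for *Pck1* in DMSO, and whether depth or low expression set this was not tested.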
